A study of Homo sapiens with 12 samples.

Results

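FOXA1, FOXA2, GATA6, SOX9, CEBPA, NKX2-1 and HNF4A encode transcription factors that specify endoderm and build the lung and liver epithelia that come from it. The 7 genes were chosen by symbol, and 6 of them had a row in both tables of counts, which share 23771 genes. NKX2-1, the factor that marks lung identity in endoderm, had no row in either table, so no level is given for it. Every row in these tables had more than 0.1 CPM (counts scaled to a common library size) in at least 4 of its 8 libraries.

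The cells were A549, an established human line from a lung adenocarcinoma. One group received 10 ng/mL TGF-β1 together with 40 mM sodium acetate, one received 10 ng/mL TGF-β1, and the control group received neither, with treatment lasting 2 days. Each of the 3 groups had 4 libraries of total RNA depleted of ribosomal RNA, labelled here S22 to S25 (TGF-β1 plus acetate), S15 to S18 (TGF-β1) and S1 to S4 (control). Columns were placed in groups by the authors' table names and by which table holds them, since no sample label names a column, and every comparison rests on that placement. Cells given acetate without TGF-β1 were not analysed here.

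FOXA1 and FOXA2 are forkhead pioneer factors that open chromatin at gut, liver and lung enhancers. GATA6 is a zinc-finger factor of early endoderm and of distal lung, and SOX9 is an HMG-box factor of the branching lung tips and of cartilage. CEBPA is a basic leucine zipper factor of liver and of maturing alveolar cells, and HNF4A is a nuclear receptor that drives liver and gut genes. TGF-β1 pushes epithelial cells of this kind towards a mesenchymal state, and acetate can feed acetyl-CoA.

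The promoters of HNF4A and of LINC00261 are shown first, because HNF4A has alternative start sites and because a noncoding gene beside FOXA2 moved in the same direction as FOXA2. Sequences are from RefSeq (GRCh38.p14, whose chromosome coordinates are those of hg38), run 5′ to 3′ and cover 250 bases before to 50 after a start. Capitals mark matches on either strand to 6 motifs: FOX (TGTTTAC, with TATTTAC also taken as a match), the GATA-factor motif (AGATAA), AP-1 (TGAGTCA, with TGACTCA also taken as a match), an E-box (CAGGTG), C/EBP (TTGCNNAA) and SOX (ACAATGG).
HNF4A upstream start, chr20:44355449-44355748, plus strand: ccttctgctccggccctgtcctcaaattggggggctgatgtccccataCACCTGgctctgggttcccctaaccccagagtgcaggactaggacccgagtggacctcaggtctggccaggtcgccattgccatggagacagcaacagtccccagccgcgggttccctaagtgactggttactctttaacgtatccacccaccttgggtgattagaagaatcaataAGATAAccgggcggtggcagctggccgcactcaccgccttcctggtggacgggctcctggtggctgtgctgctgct
HNF4A downstream start, chr20:44400989-44401288, plus strand: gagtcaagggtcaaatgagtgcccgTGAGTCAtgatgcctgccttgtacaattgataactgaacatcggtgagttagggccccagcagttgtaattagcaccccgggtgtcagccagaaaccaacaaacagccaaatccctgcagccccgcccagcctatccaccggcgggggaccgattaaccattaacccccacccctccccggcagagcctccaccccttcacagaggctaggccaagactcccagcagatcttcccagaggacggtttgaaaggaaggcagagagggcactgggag
LINC00261, chr20:22578593-22578892, minus strand: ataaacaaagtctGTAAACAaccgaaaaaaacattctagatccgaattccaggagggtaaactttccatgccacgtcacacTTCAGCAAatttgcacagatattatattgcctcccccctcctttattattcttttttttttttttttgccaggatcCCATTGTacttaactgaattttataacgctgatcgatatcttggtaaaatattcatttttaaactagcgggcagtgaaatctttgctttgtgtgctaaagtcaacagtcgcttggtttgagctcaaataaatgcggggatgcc

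Counting from 1 at the 5′ end, the upstream HNF4A window held an E-box at 49 and a GATA match at 225. The downstream HNF4A window held an AP-1 match at 26. The LINC00261 window held a FOX match at 14, a C/EBP match at 82 and a SOX match at 158. Over all 35116 promoter windows, a match was present in 5.97% for FOX, 10.3% for GATA, 4.95% for AP-1, 20.6% for the E-box, 10.5% for C/EBP and 3.16% for SOX. The FOXA1 window held an E-box at 129, and the GATA6 and CEBPA windows held none of these letters. For NKX2-1, 1 window held a FOX match at 121 and a GATA match at 151, and the other held none. FOXA2 and SOX9 had no window in the promoter table. A match describes letters only, and counts per gene do not show which HNF4A start was used.

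Total counts per library ran from 34698057 to 41575904 with TGF-β1 plus acetate, from 37202599 to 53936023 with TGF-β1 and from 38400896 to 53055990 in control. At these depths 3 counts equal 0.0564 to 0.0856 CPM, a limit that covers counting error only. Of 8 markers of an epithelial or adenocarcinoma line all had a row, and their summed level was 6680 to 7670 CPM with TGF-β1 plus acetate, 5580 to 6170 CPM with TGF-β1 and 6040 to 6280 CPM in control. The leukocyte genes PTPRC and CD3E had no row, and the 3 of 6 leukocyte markers that had one summed to 24.3 to 25.7 CPM with TGF-β1 plus acetate, 13.6 to 16.8 CPM with TGF-β1 and 13.5 to 16.4 CPM in control. The endothelial genes PECAM1, VWF and CDH5 had no row, and the other 2 of 5 markers summed to 0.874 to 1.42 CPM with TGF-β1 plus acetate, 0.742 to 0.907 CPM with TGF-β1 and 0.225 to 0.286 CPM in control. The neuroendocrine genes INSM1 and NEUROD1 had no row, and the 2 of 5 markers that had one summed to 0.824 to 1.13 CPM with TGF-β1 plus acetate, 1.36 to 2.28 CPM with TGF-β1 and 2.07 to 2.85 CPM in control. The hepatocyte genes ALB, CYP3A4, APOA2 and AHSG, 4 of 5 listed, had no row. All 6 fibroblast and mural markers had one, with a sum of 45.1 to 48.5 CPM with TGF-β1 plus acetate, 35.6 to 37.8 CPM with TGF-β1 and 17.5 to 18.8 CPM in control. The part of these marker lists in the results was not tested. Nothing in the labels tells if the 4 libraries of a group stem from different cultures, so the p-values reflect variation among libraries that may be technical only. In bulk RNA, fewer cells that express a gene and less of its RNA per cell cannot be told apart.

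TGF-β1 moved the factors in opposite directions. HNF4A, SOX9 and FOXA1 rose, FOXA2 and CEBPA fell, and GATA6 did not pass the test. With acetate added to TGF-β1, FOXA2, CEBPA, GATA6 and SOX9 rose and HNF4A and FOXA1 fell. The plot of levels by library shows all 6 genes.

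**Figure D1:**
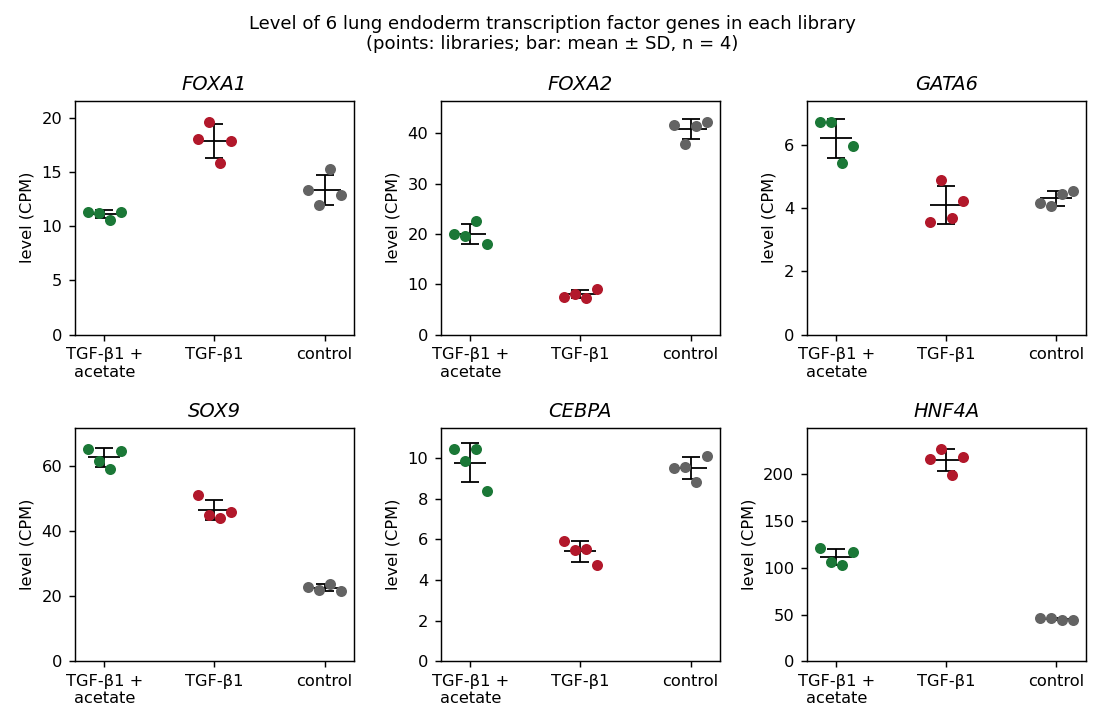
Level of each gene in CPM (vertical axes, starting at 0) in every library of the 3 groups, with TGF-β1 plus acetate on the left and control on the right; points are libraries and bars are mean ± SD (n = 4). HNF4A is highest with TGF-β1 (198 to 227 CPM), and FOXA2 is highest in control (37.9 to 42.2 CPM).

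HNF4A (ENSG00000101076.16, chr20:44355700-44434596, plus strand of hg38) had 121, 106, 103 and 117 CPM in the TGF-β1 plus acetate libraries, 216, 227, 198 and 218 CPM in the TGF-β1 libraries, and 46.5, 46.6, 44.6 and 44.2 CPM in the control libraries. The 3 groups did not overlap, and the TGF-β1 plus acetate libraries lay between the others. HNF4A was 4.74-fold higher with TGF-β1 than in control (log2 fold change 2.24, SE 0.045, edgeR adjusted p = 1.1e-16). Adding acetate brought it 1.91-fold lower than with TGF-β1 (log2 fold change -0.93, SE 0.07, edgeR adjusted p = 4.0e-10). It still stood 2.46-fold above control (log2 fold change 1.30, SE 0.06, edgeR adjusted p = 2.8e-14). HNF4A-AS1, named for its position, is an antisense gene within HNF4A whose exons do not overlap those of HNF4A. It averaged 0.751 ± 0.175 CPM with TGF-β1 and 0.218 ± 0.104 CPM in control (SD, n = 4; edgeR adjusted p = 0.00014). At 0.598 ± 0.157 CPM with TGF-β1 plus acetate, its difference from TGF-β1 did not pass (log2 fold change -0.31, edgeR adjusted p = 0.31), while HNF4A fell.

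FOXA2 (ENSG00000125798.14, chr20:22581005-22585455, minus strand) had 19.97, 19.5, 22.5 and 17.9 CPM with TGF-β1 plus acetate, 7.52, 8.13, 7.24 and 9.11 CPM with TGF-β1, and 41.7, 37.9, 41.5 and 42.2 CPM in control. The groups did not overlap, and the order was the reverse of that of HNF4A. FOXA2 was 5.10-fold lower with TGF-β1 than in control (log2 fold change -2.35, SE 0.08, edgeR adjusted p = 6.6e-15), a change larger in size than that of 95.2% of tested genes. FOXA2 was 2.52-fold higher with TGF-β1 plus acetate than with TGF-β1 (log2 fold change 1.33, SE 0.10, edgeR adjusted p = 1.2e-09). It remained 2.05-fold below control (log2 fold change -1.03, SE 0.08, edgeR adjusted p = 4.4e-11).

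LINC00261, a long noncoding gene on the same strand whose start lies 2362 bases past the 3′ end of FOXA2, followed the same order at a lower level. It averaged 1.52 ± 0.175 CPM with TGF-β1 plus acetate, 0.449 ± 0.153 CPM with TGF-β1 and 3.46 ± 0.298 CPM in control (SD, n = 4). It fell with TGF-β1 (log2 fold change -2.89, edgeR adjusted p = 3.5e-10), and it was higher with TGF-β1 plus acetate than with TGF-β1 (log2 fold change 1.72, edgeR adjusted p = 5.3e-06). Its promoter window above holds FOX, C/EBP and SOX matches, and whether any factor acts there was not tested.

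FOXA1 (ENSG00000129514.5, chr14:37589984-37596059, minus strand) had 11.3, 11.2, 10.6 and 11.3 CPM with TGF-β1 plus acetate, 18.1, 19.6, 15.9 and 17.9 CPM with TGF-β1, and 13.4, 11.96, 15.3 and 12.9 CPM in control. The TGF-β1 libraries were the highest and the TGF-β1 plus acetate libraries the lowest, with no overlap between groups. FOXA1 was 1.34-fold higher with TGF-β1 than in control (log2 fold change 0.42, SE 0.10, edgeR adjusted p = 0.00011). In TGF-β1 plus acetate libraries it was 1.59-fold lower than with TGF-β1 (log2 fold change -0.67, SE 0.07, edgeR adjusted p = 3.0e-07) and 1.20-fold lower than control (log2 fold change -0.27, SE 0.08, edgeR adjusted p = 0.0039). MIPOL1, a protein-coding neighbour of FOXA1, averaged 12.3 ± 0.594 CPM with TGF-β1 plus acetate, 14.7 ± 0.748 with TGF-β1 and 19.3 ± 0.576 in control (SD, n = 4). It fell with TGF-β1 (edgeR adjusted p = 4.9e-06) and again with acetate added (log2 fold change -0.25, edgeR adjusted p = 0.0022), the second call being lost with library totals (log2 fold change -0.12, edgeR adjusted p = 0.13, with a range of 4e-04 to 0.13 over the alternatives).

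FOXA1 and FOXA2 bind the same DNA motif, so their levels were also set side by side per kb of transcript. Their sum was 12.1 ± 0.681 CPM per kb with TGF-β1 plus acetate, 9.54 ± 0.751 with TGF-β1 and 21.5 ± 1.16 in control (SD, n = 4). FOXA2 made up 67.9 ± 2.68% of that sum with TGF-β1 plus acetate, 34.6 ± 2.24% with TGF-β1 and 78.3 ± 1.42% in control. In TGF-β1 libraries FOXA1 was thus the more abundant of the pair, and in the other groups FOXA2 was. These values use the longest transcript, and the sums and shares depend on that choice. Over all exons instead, FOXA2 stood at 7.67 CPM per kb with TGF-β1 plus acetate, 3.07 with TGF-β1 and 15.7 in control. FOXA1 stood at 2.79, 4.48 and 3.36 CPM per kb in the same groups, so the order of the pair was kept. The longest exact stretch that transcripts of the pair share is 48 bases, shorter than one 75-base read.

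**Figure D2:**
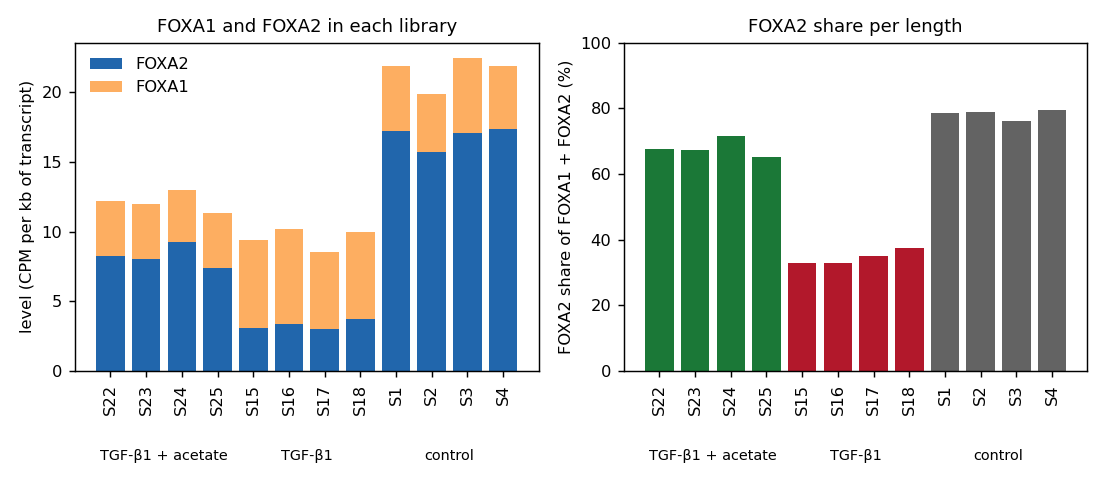
Left, FOXA2 and FOXA1 levels in CPM per kb of the longest transcript, stacked for each library. Right, FOXA2 as a percent of their sum. The FOXA2 share is 32.9% to 37.6% in the TGF-β1 libraries and 65.2% or more in all other libraries.

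SOX9 (ENSG00000125398.5, chr17:72121020-72126420, plus strand) had 65.2, 61.6, 59.1 and 64.6 CPM with TGF-β1 plus acetate, 51.0, 44.8, 44.1 and 45.8 CPM with TGF-β1, and 22.95, 22.02, 23.9 and 21.7 CPM in control. It was higher with TGF-β1 than in control, and higher again with TGF-β1 plus acetate, with no overlap between groups. SOX9 was 2.06-fold higher with TGF-β1 than in control (log2 fold change 1.04, SE 0.06, edgeR adjusted p = 1.7e-11). With TGF-β1 plus acetate it was 1.36-fold higher than with TGF-β1 (log2 fold change 0.44, SE 0.06, edgeR adjusted p = 1.3e-06) and 2.77-fold higher than control (log2 fold change 1.47, SE 0.045, edgeR adjusted p = 3.0e-15). The noncoding neighbour LINC01152 went the other way, at 1.1 ± 0.142 CPM with TGF-β1 plus acetate, 1.60 ± 0.325 CPM with TGF-β1 and 2.95 ± 0.112 CPM in control (SD, n = 4). Its fall with TGF-β1 passed (edgeR adjusted p = 3.2e-05), and so did its lower level with acetate added (edgeR adjusted p = 0.015), a call lost with library totals (edgeR adjusted p = 0.059) or without TGF-β1 library S17 (edgeR adjusted p = 0.060). Its adjusted p had a range of 0.0044 to 0.060 over the alternatives tried. SOX9-AS1, named for its position, is an antisense gene across SOX9 that shares no exonic bases with it. It averaged 0.920 ± 0.0897 CPM with TGF-β1 plus acetate, 0.566 ± 0.257 CPM with TGF-β1 and 0.562 ± 0.126 CPM in control (SD, n = 4). TGF-β1 against control did not pass for it (log2 fold change 0.07, edgeR adjusted p = 0.85), and with acetate added it was higher (log2 fold change 0.67, edgeR adjusted p = 0.036). That call was lost when any 1 of 6 libraries was left out (TGF-β1 S15, S16 or S18, or TGF-β1 plus acetate S23, S24 or S25), with edgeR adjusted p of 0.10, 0.093, 0.13, 0.082, 0.051 and 0.070 in that order, and over all alternatives it was 0.0013 to 0.13.

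CEBPA (ENSG00000245848.2, chr19:33299934-33302564, minus strand) had 10.4, 9.83, 10.4 and 8.38 CPM with TGF-β1 plus acetate, 5.93, 5.45, 5.52 and 4.72 CPM with TGF-β1, and 9.52, 9.53, 8.81 and 10.1 CPM in control. All TGF-β1 libraries lay below all others, while the TGF-β1 plus acetate and control libraries overlapped. CEBPA was 1.75-fold lower with TGF-β1 than in control (log2 fold change -0.81, SE 0.08, edgeR adjusted p = 1.1e-07). CEBPA with TGF-β1 plus acetate was 1.82-fold higher than with TGF-β1 (log2 fold change 0.86, SE 0.10, edgeR adjusted p = 7.9e-07). Against control the difference did not pass (log2 fold change 0.04, SE 0.08, edgeR adjusted p = 0.69).

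A pair of antisense genes overlaps 659 and 482 bases of the CEBPA exons on the other strand, and the strand setting of the counting is not given. CTD-2540B15.11 had 196 to 218 counts with TGF-β1 plus acetate, 81 to 150 counts with TGF-β1 and 197 to 292 counts in control, and CTD-2540B15.7 had 59 to 93, 36 to 49 and 69 to 97 counts in the same groups. Both fell with TGF-β1 (log2 fold changes -0.91 and -0.78) and both were higher with acetate added (0.97 and 0.75). Their part in the CEBPA counts was not tested. CEBPA-AS1, which lies outside the gene, did not pass in either comparison (log2 fold changes 0.17 with TGF-β1 and 0.01 with acetate added).

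GATA6 (ENSG00000141448.8, chr18:22169443-22202528, plus strand) had 6.72, 6.71, 5.43 and 5.95 CPM with TGF-β1 plus acetate, 3.55, 4.88, 3.69 and 4.21 CPM with TGF-β1, and 4.18, 4.06, 4.44 and 4.55 CPM in control. The TGF-β1 plus acetate libraries were the highest, and the TGF-β1 and control libraries overlapped. TGF-β1 against control did not pass for GATA6 (log2 fold change -0.08, SE 0.11, edgeR adjusted p = 0.51). GATA6 with TGF-β1 plus acetate was 1.53-fold higher than with TGF-β1 (log2 fold change 0.62, SE 0.13, edgeR adjusted p = 0.00014) and 1.44-fold higher than control (log2 fold change 0.52, SE 0.08, edgeR adjusted p = 0.00012). RP11-627G18.1, an antisense gene over 321 bases of the GATA6 exons, had 45 to 74 counts with TGF-β1 plus acetate and 29 to 44 counts with TGF-β1 (edgeR adjusted p = 0.003). It had 46 to 64 counts in control, and TGF-β1 against control did not pass (log2 fold change -0.37, edgeR adjusted p = 0.052). That difference passed with RLE size factors (edgeR adjusted p = 0.047), library totals (0.017) or without control library S2 (0.031). GATA6-AS1, antisense over 240 bases of these exons, had 6 to 12 counts with TGF-β1 plus acetate and 4 to 16 with TGF-β1 (edgeR adjusted p = 0.75). The part of either gene in the GATA6 counts was not tested.

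**Figure D3:**
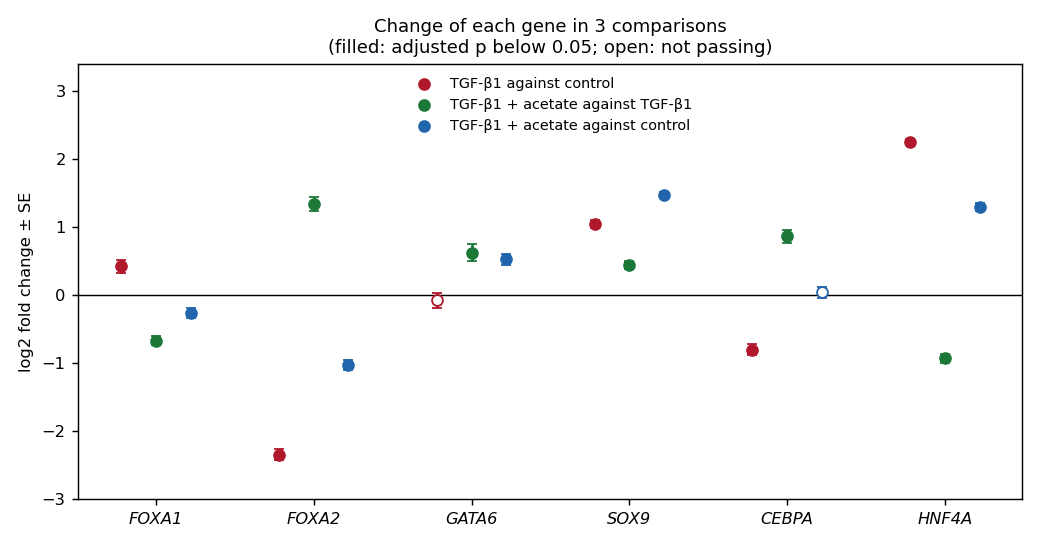
Log2 fold change ± SE (vertical axis) of each gene in TGF-β1 against control, TGF-β1 plus acetate against TGF-β1, and TGF-β1 plus acetate against control; filled points passed at an adjusted p below 0.05. GATA6 under TGF-β1 (-0.08) and CEBPA in TGF-β1 plus acetate against control (0.04) are the open points.

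In counts, 5 of the 6 tested genes passed under TGF-β1 (3 higher, 2 lower), against 66.9% of all 22051 genes tested (34.1% higher, 32.8% lower). With TGF-β1 plus acetate against TGF-β1, 6 of 6 passed (4 higher, 2 lower), against 63.7% of 22336 genes (33.3% higher, 30.4% lower). With TGF-β1 plus acetate against control, 5 of 6 passed (3 higher, 2 lower), against 70.6% of 22742 genes (36.1% higher, 34.4% lower). Groups did not overlap for 5, 6 and 5 of the genes in these comparisons, while over all genes tested they did not overlap for 61.4%, 57.4% and 64%. At an adjusted p below 0.05 and a fold of at least 2, 3 of 6 genes passed under TGF-β1 (HNF4A, SOX9, FOXA2), 1 of 6 with acetate added (FOXA2) and 3 of 6 with TGF-β1 plus acetate against control (HNF4A, SOX9, FOXA2), against 17.6%, 12.8% and 19.8% of all genes tested. At an adjusted p below 0.05 alone, where most genes were called, the number of factors called says little about these factors. The 2-fold counts rest on 3 genes that are the same in both comparisons with control, which share the control libraries. Near the 2-fold limit these counts depended on the processing. Over the alternatives tried, the log2 fold change of SOX9 under TGF-β1 ran from 0.94 to 1.07. That of FOXA2 in TGF-β1 plus acetate against control ran from -1.10 to -0.98. The median log2 fold changes of the 6 genes were 0.17, 0.53 and 0.28, against 0.0157, 0.0261 and 0.0229 over all genes tested. TGF-β1 libraries enter both of the first comparisons.

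In the authors' deposited tables, the log2 fold changes for TGF-β1 against control were 2.24 for HNF4A, -2.35 for FOXA2, 1.04 for SOX9, -0.81 for CEBPA, 0.42 for FOXA1 and -0.09 for GATA6. For acetate added to TGF-β1 the authors' deposited table gives -0.94 for HNF4A, 1.33 for FOXA2, 0.44 for SOX9, 0.85 for CEBPA, -0.67 for FOXA1 and 0.62 for GATA6.

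Per kb of the longest transcript, the order of levels changed between groups. With TGF-β1 plus acetate HNF4A stood at 17.3 ± 1.30 CPM per kb and SOX9 at 15.9 ± 0.723, with overlapping libraries, followed by FOXA2 at 8.25 ± 0.791, FOXA1 at 3.88 ± 0.127 and CEBPA at 3.71 ± 0.368, which also overlapped, and GATA6 at 1.65 ± 0.166 (SD, n = 4). With TGF-β1 the order was HNF4A (33.3 ± 1.83), SOX9 (11.8 ± 0.792), FOXA1 (6.24 ± 0.540), FOXA2 (3.30 ± 0.341), CEBPA (2.06 ± 0.191) and GATA6 (1.08 ± 0.159 CPM per kb), with no overlap between neighbours. In control FOXA2 came first at 16.9 ± 0.808, then HNF4A at 7.05 ± 0.197, SOX9 at 5.76 ± 0.251, FOXA1 at 4.67 ± 0.486, CEBPA at 3.61 ± 0.2 and GATA6 at 1.14 ± 0.0604 CPM per kb, again with no overlap. Over all exons of each gene instead, the overlapping neighbours with acetate change places (SOX9 15.9 and HNF4A 15.3, CEBPA 3.71 and FOXA1 2.79 CPM per kb), and in control CEBPA (3.61) stands above FOXA1 (3.36).

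The genes nearest to each factor over the 12 libraries were found among 14705 protein-coding genes by Euclidean distance in centred log2 CPM. For FOXA1 they were POLE2, a DNA polymerase epsilon subunit (distance 0.302), TRIP13 (0.313) and CDCA8 (0.319), and POLE2 averaged 10.9 CPM with TGF-β1 plus acetate, 18.3 CPM with TGF-β1 and 13.8 CPM in control. For FOXA2 they were BCO1, a carotenoid-cleaving enzyme (0.302), the monoglyceride lipase gene MGLL (0.371) and ELF3, an epithelial ETS factor (0.466). For HNF4A they were the proprotein convertase gene PCSK7 (0.314), MOB3B (0.440) and NREP (0.505). SOX9 was nearest to the endocytic adaptor gene DAB2 (0.210), TARSL2 (0.240) and the calcium channel subunit gene CACNB3 (0.249). CEBPA was nearest to MPZL3 (0.322), PCDHA12 (0.373), whose cluster shares exons between genes, and VWDE (0.391). GATA6 was nearest to FLVCR2 (0.393), SLC25A29 (0.399) and SLC9A3R1 (0.405).

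Relatives of these factors moved as well. Of 29 relatives, 24 were tested under TGF-β1, and 5 of these rose while 14 fell (median log2 fold change -0.66). Over all genes tested 34.1% were higher and 32.8% lower. SOX21 (log2 fold change -7.27) is among those that fell and was tested only in that comparison. It passed the count filter through the control libraries, so its fall was favoured by the filter. With acetate added 11 of 23 rose and 7 fell, with a median of 0.29, against 33.3% higher and 30.4% lower over all genes. SOX4, a SOX factor common in epithelial cancers, averaged 213 ± 6.75 CPM with TGF-β1 plus acetate, 296 ± 3.44 with TGF-β1 and 104 ± 3.4 in control. SOX2, a factor of the proximal airway, averaged 2.54 ± 0.0822 CPM with TGF-β1 and 14.7 ± 0.539 in control (log2 fold change -2.53, edgeR adjusted p = 8.6e-15). SOX13 was higher with acetate added (log2 fold change 1.49, edgeR adjusted p = 9.2e-11). It averaged 11.4 ± 0.325 CPM with TGF-β1 plus acetate, 4.08 ± 0.27 with TGF-β1 and 8.56 ± 0.405 in control.

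Outside the rule that names genes, and picked after their values were seen, FOXA3 and HNF4G are paralogues of members. FOXA3 fell with TGF-β1 (log2 fold change -2.51) and rose with acetate added (1.27). HNF4G, the paralogue of HNF4A, fell with TGF-β1 (-2.87), and its difference with acetate added did not pass (0.29, edgeR adjusted p = 0.19) but did without TGF-β1 library S15 (0.42, edgeR adjusted p = 0.047, with a range of 0.047 to 0.41 over the alternatives).

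Of 37 other endoderm and lung regulators 27 were tested under TGF-β1, and 8 rose and 13 fell (median log2 fold change -0.19). With acetate added 13 of 27 rose and 5 fell (median 0.28). The shares over all genes were 34.1% higher and 32.8% lower, and 33.3% and 30.4% with acetate added. TCF21 (log2 fold change -3.15) was tested under TGF-β1 and not with acetate added, and TBX4 (1.21) the other way round. They passed the count filters through control and acetate libraries, so these changes were favoured by the filters. FOXP1, a forkhead repressor of lung epithelium, averaged 316 ± 4.53 CPM with TGF-β1 and 52.6 ± 3.22 CPM in control (log2 fold change 2.59, edgeR adjusted p = 1.5e-17). KLF5, a Krüppel-like factor of airway and alveolar epithelium, averaged 61.6 ± 1.68 CPM with TGF-β1 plus acetate, 21.5 ± 0.767 with TGF-β1 and 75.0 ± 2.32 in control. NR5A2, a nuclear receptor of liver and pancreas, averaged 128 ± 8.01, 54.3 ± 2.02 and 154 ± 2.79 CPM in the same groups. TP63, a basal cell factor, was higher with acetate added (log2 fold change 1.17, edgeR adjusted p = 1.4e-10). It averaged 34 ± 2.09 CPM with TGF-β1 plus acetate, 15.1 ± 1.14 with TGF-β1 and 6.84 ± 0.657 in control.

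Liver-type secreted and transport genes, known targets of HNF4A, FOXA and C/EBP factors in liver, mostly fell under TGF-β1. HNF4A was highest in that treatment, and whether any of these factors acts on the listed genes here was not tested. The list was chosen with earlier results of these data known. Of 37 listed, 22 were tested, and 1 rose while 16 fell (median log2 fold change -2.18). Over all genes tested 34.1% were higher and 32.8% lower. With acetate added 13 of 22 rose and 3 fell (median 0.70), and against control 5 rose and 15 fell (median -1.61). The shares over all genes were 33.3% higher and 30.4% lower with acetate added, and 36.1% and 34.4% against control. The fibrinogen alpha chain gene FGA averaged 6.4 ± 0.697 CPM with TGF-β1 plus acetate, 0.586 ± 0.0905 with TGF-β1 and 71.1 ± 1.76 in control, so with acetate added it was higher than with TGF-β1 (log2 fold change 3.46, edgeR adjusted p = 1.0e-11) and still far below control (log2 fold change -3.48). The gamma chain gene FGG averaged 3.88 ± 0.393 CPM with TGF-β1 plus acetate, 0.720 ± 0.0916 with TGF-β1 and 37.0 ± 2.00 in control. TM4SF4, a tetraspanin-like membrane protein, averaged 11.2 ± 1.18, 1.54 ± 0.225 and 69.2 ± 4.81 CPM in the same groups. CDH17, the liver-intestine cadherin, averaged 18.5 ± 0.365 CPM with TGF-β1 plus acetate, 2.18 ± 0.292 with TGF-β1 and 11.2 ± 0.945 in control. Its log2 fold change was 3.09 with acetate added (edgeR adjusted p = 1.3e-13). With TGF-β1 plus acetate against control it was 0.72 (edgeR adjusted p = 1.3e-08).

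Surfactant and alveolar genes, which NKX2-1, FOXA and C/EBP factors drive in lung, were mostly low. Of 26 listed, 14 had a row and 11 were tested under TGF-β1, of which 5 rose and 2 fell (median log2 fold change 0.24). With acetate added 7 of 11 rose and 1 fell (median 0.44), and against control 9 rose and 1 fell (median 1.12). Over all genes 34.1% were higher and 32.8% lower under TGF-β1, 33.3% and 30.4% with acetate added, and 36.1% and 34.4% against control. CFTR (log2 fold change -2.08) was tested only under TGF-β1, and SFTPB only in fits that hold acetate libraries. The sets thus differ, and the count filters favoured the fall of CFTR and higher levels of SFTPB with acetate. The surfactant lipid transporter gene ABCA3 averaged 89.6 ± 4.41 CPM with TGF-β1 plus acetate, 43.6 ± 1.98 with TGF-β1 and 41.1 ± 1.97 in control (log2 fold change 1.05 with acetate added, edgeR adjusted p = 1.5e-11). LPCAT1, which makes surfactant phospholipid, averaged 166 ± 5.84, 96.7 ± 1.75 and 82.2 ± 1.81 CPM in the same groups (log2 fold change 0.79 with acetate added, edgeR adjusted p = 2.9e-11). CTSH, a cathepsin that processes surfactant protein, averaged 25 ± 1.35 CPM with TGF-β1 plus acetate, 16.9 ± 0.669 with TGF-β1 and 11 ± 0.797 in control. FGFR2, the epithelial FGF receptor, averaged 1.42 ± 0.178 CPM with TGF-β1 and 0.379 ± 0.0866 CPM in control (log2 fold change 1.89). CLDN18, a tight junction claudin of alveolar cells, averaged 1.45 ± 0.321 CPM with TGF-β1 and 0.250 ± 0.124 CPM in control (edgeR adjusted p = 5.6e-07). The surfactant protein gene SFTPB is given although the rule does not name it. It averaged 0.307 ± 0.0852 CPM with TGF-β1 plus acetate, 0.254 ± 0.0901 with TGF-β1 and 0.129 ± 0.0341 in control. Its difference with acetate added did not pass (edgeR adjusted p = 0.43). TGF-β1 plus acetate against control passed (log2 fold change 1.25, edgeR adjusted p = 0.0044).

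Cartilage-type genes that SOX9 activates in chondrocytes rose in 5 of 9 cases under TGF-β1 and fell in 3 (median log2 fold change 1.33). With acetate added 11 of 13 rose and 1 fell (median 0.85). The shares over all genes were 34.1% higher and 32.8% lower under TGF-β1, and 33.3% and 30.4% with acetate added. COL2A1, ACAN, COMP and MIA, named here outside the rule, were tested only in fits that hold acetate libraries. They passed the count filters through those libraries, so their rises with acetate added (2.73, 2.17, 1.99 and 1.33) were favoured by the filters. The 11 of 13 that rose include these genes. The counts and medians under TGF-β1 and with acetate added thus cover different sets of genes. The fibrillar collagen gene COL27A1 averaged 74.5 ± 7.92 CPM with TGF-β1 plus acetate, 110 ± 3.73 with TGF-β1 and 31.4 ± 1.70 in control, so it was lower with acetate added while SOX9 was higher. COL9A3 and COL11A2 were higher with acetate added (log2 fold changes 1.14 and 0.85). MATN3, a matrilin, averaged 9.56 ± 1.07 CPM with TGF-β1 and 3.62 ± 0.283 CPM in control (log2 fold change 1.40). WWP2, a ubiquitin ligase gene, fell with TGF-β1, at 30.8 ± 1.08 CPM with TGF-β1 and 47.5 ± 1.17 CPM in control. Of the 17 cartilage-type genes 13 had a row.

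Signals that pattern lung endoderm rose in 13 of 24 cases under TGF-β1 and fell in 10 (median log2 fold change 0.25). With acetate added 14 of 24 rose and 6 fell (median 0.32). Over all genes tested 34.1% were higher and 32.8% lower under TGF-β1, and 33.3% and 30.4% with acetate added. The FGF receptor gene FGFR1 averaged 335 ± 7.44 CPM with TGF-β1 and 77.4 ± 2.54 CPM in control. WNT7A, a Wnt ligand, averaged 2.67 ± 0.315 CPM with TGF-β1 plus acetate and 6.44 ± 0.294 with TGF-β1, while its mean in control, 0.0367 CPM, lay below the 3-count limit. GLI1, a hedgehog effector and target, averaged 23.6 ± 0.956 CPM with TGF-β1 plus acetate, 11.6 ± 0.893 with TGF-β1 and 38.1 ± 1.85 in control. BMP4, a ligand of distal lung tips, averaged 10.1 ± 1.5, 1.56 ± 0.259 and 10.9 ± 0.675 CPM in the same groups. AXIN2, a Wnt feedback gene, averaged 38.8 ± 1.21, 12.6 ± 0.559 and 10.7 ± 0.287 CPM in these groups (log2 fold change 1.63 with acetate added, edgeR adjusted p = 5.1e-13). ALDH1A1, which makes retinoic acid, averaged 6730 ± 105 CPM with TGF-β1 plus acetate, 13800 ± 311 with TGF-β1 and 8920 ± 298 in control. Of the 14 neighbouring transcripts 7 were tested under TGF-β1 and 8 with acetate added. With that list included, the share of a list called ran from 57.1% to 95.8% under TGF-β1, against 66.9% over all genes. With acetate added it ran from 50% to 92.3%, against 63.7%. The 92.3% is the share of the cartilage-type list. That list includes COL2A1, ACAN, COMP and MIA, which the count filters favoured as stated above. The neighbouring transcripts in both comparisons and the surfactant genes under TGF-β1 (63.6%) stood below the share over all genes. The other lists stood above it, by little for the other endoderm and lung regulators with acetate added (66.7%). The lists are short and were chosen with earlier results of these data known. Whether their shares differ from that over all genes was not tested. Against control 90.9% of the liver-type and of the surfactant genes were called, against 70.6% over all genes.

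**Figure D4:**
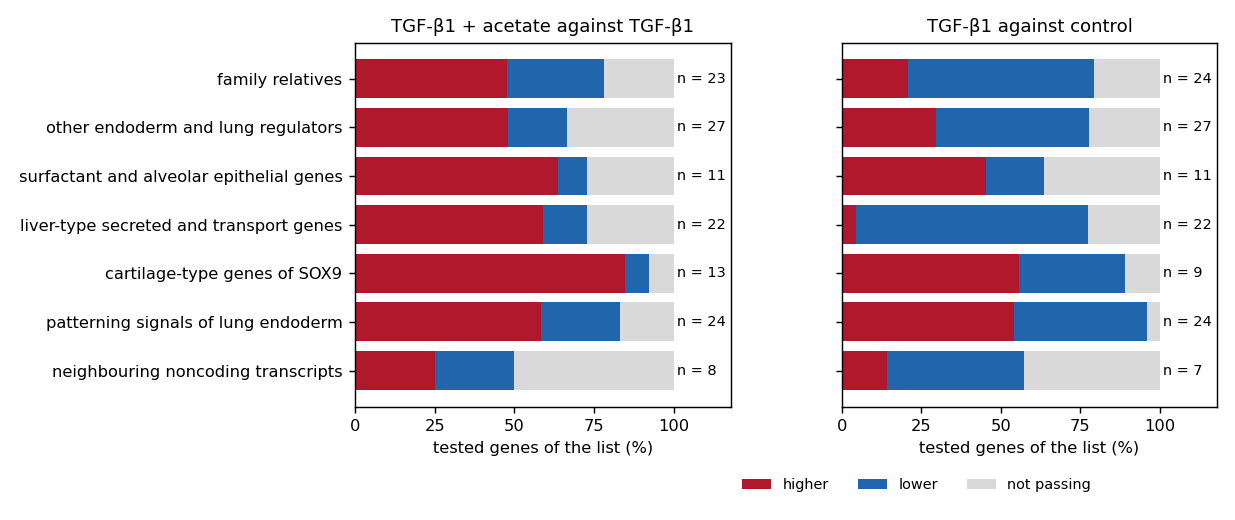
Percent of the tested genes of each list that were higher, lower or did not pass (horizontal axis), for TGF-β1 plus acetate against TGF-β1 on the left and TGF-β1 against control on the right, with the number tested beside each bar; the list of neighbouring transcripts also holds the coding genes MIPOL1 and TTC6. Of the liver-type genes 16 of 22 were lower under TGF-β1 and 13 of 22 were higher with acetate added. The cartilage-type list with acetate added includes COL2A1, ACAN, COMP and MIA, whose rises were favoured by the count filters.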

How the data were processed

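Per the labels' protocols, total RNA was depleted of ribosomal RNA, made into stranded libraries and sequenced as pairs of 75-base reads. The submitters' processing notes name bcl2fastq, HISAT2, limma and hg38; their versions and how reads were counted (tool, strand, annotation) are not given here. The authors deposited 2 tables of raw counts per gene with their own log2 fold changes, p-values and q-values, per the file headers; 32 further columns of values per library were not used. Which replicate a column holds is not shown.

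Counts were tested in R 4.3.3 with edgeR 4.0.16 (filterByExpr with minimum count 10 and minimum total 15, TMM, glmQLFit and glmQLFTest, two-sided, Benjamini-Hochberg over all genes tested, threshold 0.05). The first 2 comparisons were fitted within their table, and TGF-β1 plus acetate against control in a joint fit of 12 libraries. CPM come from that fit; the SE of a log2 fold change is that of the difference in mean log2 CPM (prior count 2). Levels per kb use the longest transcript in GENCODE release 29, whose coordinates for the 6 genes equal those in the tables. Alternatives used DESeq2 1.42.0, limma 3.58.1, other scalings, no filter and single libraries left out. The fit was tested on simulated data. Within groups, pairs of libraries differed by 3.71 to 16.3 in chi-square per degree of freedom, so none was treated as a duplicate. Members and gene lists were chosen with earlier results of these data known. Named list genes are among the 3 with the smallest p per list and comparison unless the text says otherwise or names a gene for its position beside a member. Some genes of the lists are not reported here by name.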

Additional observations from a re-analysis of the deposited data

Results flagged for a closer look

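In 2 of 18 sets of 4 libraries, 1 library stood apart from the rest of its group. FOXA1 in TGF-β1 plus acetate library S24 was 10.56 CPM, against 11.2 CPM in the next lowest library. FOXA2 in control library S2 was 37.94 CPM, against 41.5 CPM in the next lowest. Each gap exceeds the 95% limit for 4 values (0.831 and 0.832 of the group's range), and chance alone gives about 1 such case in 20 sets. Without these libraries the FOXA1 and FOXA2 calls kept their direction and side of the threshold.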

How the results depend on the processing

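All 270 alternative values for the 6 genes in 3 comparisons kept the direction and the side of the 0.05 threshold of the reported value, over RLE size factors, library totals, no filter, DESeq2, limma-voom, the joint fit and each library left out. The log2 fold change ran from 2.14 to 2.28 for HNF4A and from -2.45 to -2.30 for FOXA2 under TGF-β1, and from -0.99 to -0.80 and 1.26 to 1.46 with acetate added. The smallest called change, FOXA1 in TGF-β1 plus acetate against control, ran from -0.34 to -0.20 (edgeR, DESeq2 or limma adjusted p from 0.00059 to 0.019). Library totals moved the median of all genes from 0.026 to 0.157 with acetate added and the share of calls that were higher from 52.3% to 67.1%, with 9585 higher and 4700 lower; for TGF-β1 the share was 41.2% in place of 51%. With library totals MIPOL1, beside FOXA1, did not pass with acetate added (log2 fold change -0.12). Differences near 0 that did not pass changed sign for SOX9-AS1 under TGF-β1 (-0.04 with library totals, and -0.34 to 0.21 with 1 library left out) and for CEBPA-AS1 with acetate added (-0.01 with RLE factors or DESeq2, and -0.08 to 0.06 with 1 library left out); the cause was not tested. In the gene lists, medians kept their sign in the TGF-β1 and acetate comparisons under RLE factors and library totals, except the neighbouring transcripts under TGF-β1 (0.07, and -0.04 with library totals). Per kb over all exons, an alternative chosen after seeing the data, 7 of 18 levels moved beyond 1 SD. No paired analysis was possible because the count columns carry no replicate numbers.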
